A study of Mus musculus with 2 samples.

Results

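Mir296 and Mir298 are neighbouring miRNA hairpins of the mouse Gnas locus, and their 2 arms each were followed through small RNA libraries of J1 mouse embryonic stem cells (mESCs). Members were the sequence tags that matched the GENCODE hairpin of Mir296 or Mir298 without a mismatch over their whole length. The 2 hairpins, of 1174 searched, held 51 distinct tags, 18 of Mir296 and 33 of Mir298. Of these, 44 were found among the 910008 distinct tags of the control library and 45 among the 1046544 of the PD library. J1 mESCs, an established line grown without feeder cells on gelatin with 1000 U/mL LIF, were treated for 24 h with 1 μM PD0325901 (PD), an inhibitor of the kinase MEK, or with DMSO alone (control). Each treatment was sequenced as 1 library of RNA pooled from 3 independent experiments. There was therefore no replicate. Every interval and test below therefore compares the reads of these 2 libraries, not the treatments, and covers counting error only. The intervals and tests also treat reads as independent, which PCR copies of the same molecule are not.

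A miRNA gene is transcribed into a hairpin, from which Drosha and Dicer cut a short duplex of a 5p and a 3p strand. One strand is usually retained in an Argonaute protein, where bases 2 to 8, the seed, pair with target mRNAs. Which strand is kept, where its ends lie and whether bases without a template are added to its 3′ end differ between miRNAs. Gnas is an imprinted locus with transcripts in both directions, among them the antisense Nespas, and Mir296 and Mir298 lie on the strand of Nespas. The miRNA miR-296 has been reported to act on the coding sequence of Nanog, a transcription factor of the pluripotent state. The study that made these libraries names miR-296-5p for the mimics of its Nanog assays. The primer it lists for quantitative PCR is for the other arm, miR-296-3p.

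In GRCm38, on the minus strand of chromosome 2, Mir296 spans chr2:174267047-174267125 (79 nt) and Mir298 spans chr2:174267504-174267585 (82 nt). The hairpins are 378 bases apart. Nespas, at chr2:174281237-174295436 on the same strand, lies 13651 bases from Mir298, and Gnas, at chr2:174284320-174346744 on the plus strand, lies 16734 bases from it. The RefSeq hairpins (GRCm38.p6), which were identical to those of GENCODE, are shown to place the arms, with both RefSeq mature strands in capitals.
Mir296: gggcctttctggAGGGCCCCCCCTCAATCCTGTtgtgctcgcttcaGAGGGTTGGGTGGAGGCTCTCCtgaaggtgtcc
Mir298: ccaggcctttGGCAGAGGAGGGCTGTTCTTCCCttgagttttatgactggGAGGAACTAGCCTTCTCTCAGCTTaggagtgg

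The predicted minimum free energies of the folded hairpins were -43.2 kcal/mol for Mir296 and -42.7 kcal/mol for Mir298. Although they are neighbours, the hairpins are not copies of each other, and their longest shared run had 7 bases. The 4 RefSeq mature strands have different seeds, shown in capitals.
miR-296-5p: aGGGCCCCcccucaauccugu
miR-296-3p: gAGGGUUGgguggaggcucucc
miR-298-5p: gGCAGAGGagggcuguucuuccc
miR-298-3p: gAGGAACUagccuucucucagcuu

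None of these seeds was shared with the most frequent tag of any other detected arm (0 arms for each). In the files the most frequent tag was the RefSeq strand for miR-296-5p and miR-298-3p. It was 4 bases shorter than the RefSeq strand for miR-296-3p and 1 base shorter for miR-298-5p, with the same first base in both. These 2 tags, the most frequent of their arms, are shown with the seed in capitals.
miR-296-3p, 18 nt: gAGGGTTGggtggaggct
miR-298-5p, 22 nt: gGCAGAGGagggctgttcttcc

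The libraries held 18870345 (control) and 20944808 (PD) clean reads, of which 11.6% and 10.1% matched a hairpin. The 2 hairpins took 0.916% and 0.803% of those hairpin reads. Reads of 28 to 32 nt, longer than miRNAs, made up 7.11% of the control and 16.96% of the PD clean reads, so a lower level per clean read and a lower share of miRNAs in the library cannot be told apart. All 12 arms of the miR-290 to miR-295 hairpins, which mark mESCs, were detected, with summed levels of 33056 and 28348 RPM, the reads per 1000000 clean reads. Of 15 arms of hairpins of differentiated or stromal cells 10 were detected, with summed levels of 647 RPM in the control and 840 RPM in PD. The most abundant, miR-124a-1-3p, went from 255 to 472 RPM, while miR-199a-1-3p went from 91.9 to 61.4 RPM. The sum therefore does not show a common rise of these arms, and their part in the results was not tested.

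The 4 arms of the 2 hairpins differed widely in abundance. A detected arm had at least 1 RPM in either library, and 499 of the 1139 arms with reads were detected, among them 3 of the 4 arms of Mir296 and Mir298. The most abundant was miR-298-5p, 35th among the detected arms in the control and 33rd in PD. Its 15969 control and 14512 PD reads gave 846 and 693 RPM. miR-296-5p had 1376 and 1761 reads (72.9 and 84.1 RPM). miR-296-3p had 2629 and 678 reads (139 and 32.4 RPM), and so went from rank 89 to rank 150. miR-298-3p had only 9 control and 5 PD reads and was below 1 RPM in both libraries. Mir298 was thus read almost wholly from its 5p arm, whereas Mir296 gave reads from both. No tag of either hairpin lay outside its arms, as would a loop or flanking fragment (0 reads, which allows up to 3 reads, 0.159 RPM in the control and 0.143 RPM in PD). None of the 51 tags occurred in any other of the 141767 GENCODE transcripts searched, on either strand.

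**Figure D1:**
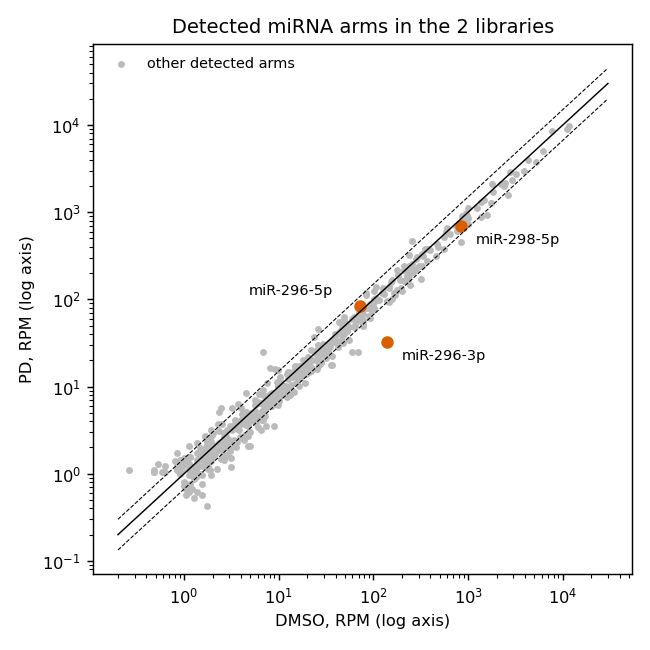
RPM in the control (DMSO, x) and PD (y) library for detected arms with reads in both, on log axes, with equality as a solid line and 1.5-fold changes as dashed lines. miR-296-3p (139 to 32.4 RPM) lies below the lower dashed line, while miR-296-5p and miR-298-5p lie between the dashed lines.

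Fold changes, given as RPM in PD over RPM in the control, were called at 1.5-fold either way. Of the 3 detected arms, miR-296-3p was downregulated and neither miR-296-5p nor miR-298-5p was called, against 14.2% of all detected arms lowered and 6.01% raised. miR-298-5p had a fold change of 0.819 (95% interval 0.80 to 0.837), which was lower than the median of 0.888 over the detected arms. The fold change of miR-296-5p was 1.15 (1.07 to 1.24), above that median. The 14 reads of miR-298-3p left its fold change between 0.132 and 1.66. The detected arms with at least 10 RPM whose fold change was nearest to that of miR-296-3p were miR-6240-3p (0.359), miR-222-3p (0.417) and miR-6240-5p (0.480).

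Counted over tags of all lengths, the balance of the 2 arms of Mir296 was reversed between the libraries. The 3p arm held 65.6% (Wilson 95% interval 64.2 to 67.1) of the Mir296 reads in the control and 27.8% (26.1 to 29.6) in PD. The odds of a 3p against a 5p read were 0.202 times as high in PD (0.180 to 0.225, two-sided Fisher's exact test, adjusted p = 7.50e-195 over 11 tests on reads of the 2 hairpins). In Mir298 the 3p arm held 0.0563% and 0.0344% of the reads, with an odds ratio of 0.611 (0.161 to 2.03, Fisher's exact test, adjusted p = 0.593). At this depth a change of the strand balance of Mir298 even as large as that of Mir296 was within its interval.

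Among the 139 hairpins with both arms detected, Mir296 had the lowest difference between the log2 fold changes of its 3p and 5p arms, -2.31. The next were Mir540 (-1.23) and Mir126a (-1.16). The median was -0.10 and the quartiles were -0.31 and 0.28, so that the gap from Mir296 to the next hairpin was wider than the range between the quartiles. The 3p and 5p reads of Mir296 come from the same library in each treatment, so no scaling of the libraries enters this difference.

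**Figure D2:**
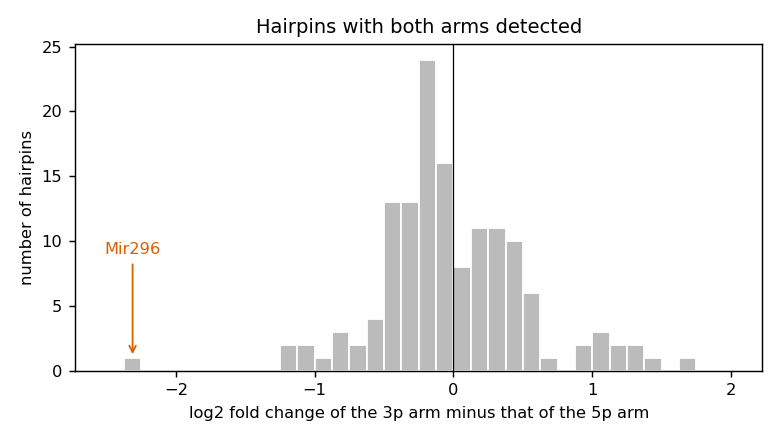
Number of hairpins (y) by the log2 fold change of the 3p arm minus that of the 5p arm (x, PD over control), for the 139 hairpins with both arms detected. Mir296, at -2.31, is separated from the next hairpin at -1.23.

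The reads that miR-296-3p lost were nearly all of 1 length. Tags of 18 nt, the shortest length kept, accounted for 2448 of its 2629 control reads (93.1%) and 582 of its 678 PD reads (85.8%), with a fold change of 0.214 (0.195 to 0.235). At 19 nt there were 60 and 14 reads (fold change 0.21, 0.108 to 0.381). The RefSeq strand of 22 nt had 85 and 55 reads, a fold change of 0.583 (0.408 to 0.828). Over all tags of 20 nt or more the arm had 121 and 82 reads, a fold change of 0.611 (0.456 to 0.815). The long and short forms were thus both lower in PD, but not to the same extent. The odds of a tag of 18 or 19 nt against a longer one were 0.351 times as high in PD (0.259 to 0.477, Fisher's exact test, adjusted p = 7.31e-11).

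When arms were counted from tags of 20 nt or more alone, a rule added after these values were seen, miR-296-3p moved from the lowest fold change of 499 detected arms to the 35th lowest of 489. It was still lowered by over 1.5-fold, as were 54 of the 489 arms (11.0%, with 6.75% raised). The difference between the strands of Mir296 then came to -0.93 on the log2 scale, the 5th lowest of 135 hairpins, and the 3p against 5p odds ratio was 0.524 (0.387 to 0.706, Fisher's exact test, adjusted p = 2.96e-05). The strands therefore diverged in the long tags too, by a smaller factor. Their balance was not reversed there. In tags of 20 nt or more the 5p arm had 1311 control and 1696 PD reads, more than the 3p arm (121 and 82) in both libraries. A primer that the study lists for the quantitative PCR of miR-296-3p has 17 bases (gagggttgggtggaggc) and is the start of both the 18-nt tag and the 22-nt strand. By quantitative PCR in independent experiments the study reported a significant downregulation of miR-296 by PD, and its text does not name the arm.

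The 5p arm of Mir296 had a single dominant form. The RefSeq strand of 21 nt made up 87.5% of its reads in the control (1204 reads) and 90.2% in PD (1589 reads), with a fold change of 1.19 (1.10 to 1.28). Tags of 18 nt were few, 20 in the control and 9 in PD (fold change 0.405, 0.163 to 0.931), and those of 19 nt numbered 45 and 56. The share of 18- and 19-nt tags did not differ beyond counting error (odds ratio 0.773, 0.535 to 1.12, Fisher's exact test, adjusted p = 0.322). With 18-nt tags alone called short, the odds ratio was 0.348 (adjusted p = 0.0171), and with 18 to 20 nt it was 0.716 (adjusted p = 0.0352, both Fisher's exact test).

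miR-298-5p, by contrast, was spread over many lengths, and its longer tags were a larger share in PD. At 20 nt it had 2745 control and 2105 PD reads, a fold change of 0.691 (0.652 to 0.732). At 21 nt there were 4527 and 3426 reads (0.682, 0.652 to 0.713), and at 22 nt 4544 and 4257 reads (0.844, 0.809 to 0.880). At 23 nt, the RefSeq length, the direction turned, with 2302 and 2818 reads (1.10, 1.04 to 1.17). The longer tags did not differ beyond counting error, with 780 and 787 reads at 24 nt (0.909, 0.822 to 1.00) and 318 and 407 reads at 25 nt (1.15, 0.993 to 1.34). As a result, tags of 18 to 21 nt fell from 50.2% to 43.0% of the arm, and the mean length was 21.53 nt in the control and 21.71 nt in PD. The share of tags of 18 and 19 nt, which the short-tag test of miR-296 used, was 4.70% and 4.86% (odds ratio 1.03, 0.93 to 1.15, Fisher's exact test, adjusted p = 0.656). With 18 to 20 nt called short the odds ratio was on the other side of 1, 0.857 (adjusted p = 1.19e-07, Fisher's exact test), and with 18 nt alone it was 0.907.

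**Figure D3:**
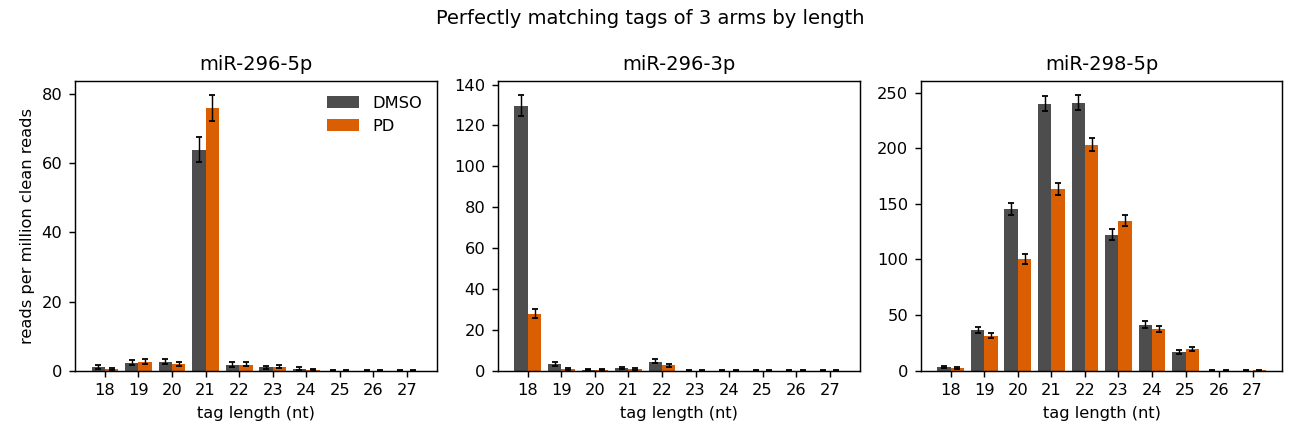
RPM (y) by tag length in nt (x) for the perfectly matching tags of 3 arms in the control (DMSO, grey) and PD (orange) library, with exact Poisson 95% intervals for counting error as error bars. miR-296-5p peaks at 21 nt and miR-296-3p at 18 nt, where control and PD are far apart, while miR-298-5p is spread over 20 to 25 nt and is higher in PD at 23 nt.

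Short miRNA tags were lower in PD in other hairpins too. Over the other 1172 hairpins together the fold change was 0.409 for 18-nt reads, 0.448 at 19 nt, 0.557 at 20 nt, 0.833 at 21 nt, 0.895 at 22 nt and 0.960 at 23 nt. Among all clean reads the share of 18-nt reads was 1.08 times as high in PD, while the shares at 19, 20, 21 and 22 nt were 0.917, 0.770, 0.763 and 0.818 times as high. At 18 nt the reads of miRNA hairpins and all clean reads thus went in opposite directions, and at 19 to 22 nt both were lower in PD. In 38 of the 41 detected arms with at least 100 reads of 18 nt these reads were lower in PD, with a median fold change of 0.391, and miR-296-3p was the 7th lowest.

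These short tags made up an unusual share of miR-296-3p. In 6 of the 41 arms, miR-296-3p among them, 18-nt tags accounted for at least 50% of the control reads. In the other 5 the 18-nt fold change was 0.494 (miR-181c-3p), 0.518 (miR-27b-3p), 0.854 (miR-3473b-3p), 0.881 (miR-1934-3p) and 1.74 (miR-700-3p), each higher than in miR-296-3p. The odds ratio of short against long tags could be formed for 118 arms, where its median was 0.520 and 96 arms lay below 1. miR-296-3p was the 16th lowest of them, miR-296-5p the 88th and miR-298-5p the 98th. Over the 118 arms it ran from 0.164 to 2.56.

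**Figure D4:**
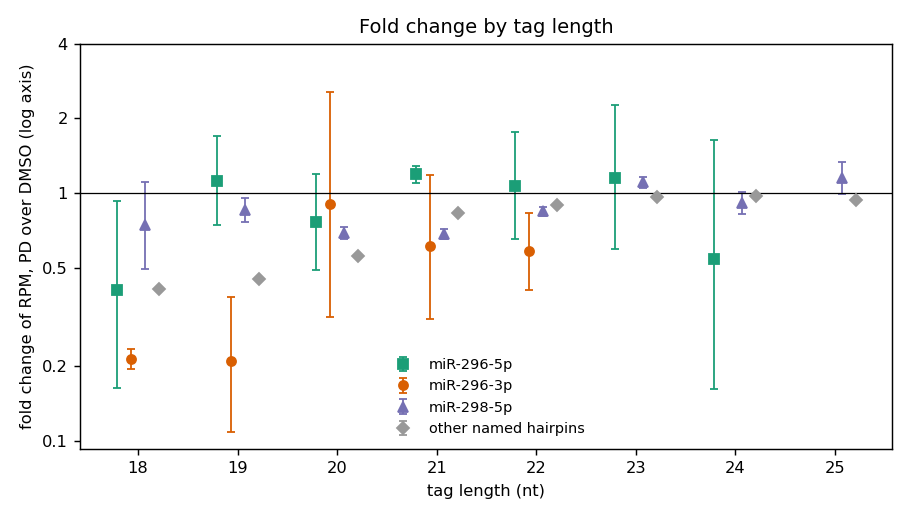
Fold change of RPM in PD over control (y, log axis) by tag length in nt (x) for 3 arms and for all other named hairpins together, with 95% intervals for counting error, shown for lengths with at least 10 reads. miR-296-3p lies at 0.214 and 0.21 at 18 and 19 nt, below the other hairpins at 0.409 and 0.448, while miR-298-5p crosses 1 between 22 and 23 nt.

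The 5′ ends, which set the seed, were almost fixed in Mir296. In the control and PD, 99.9% and 99.9% of the miR-296-5p reads and 99.7% and 99.4% of the miR-296-3p reads began at the first base of the RefSeq strand. The remaining starts numbered 2 and 2 reads for miR-296-5p (odds ratio 0.781, 0.0566 to 10.8, Fisher's exact test, adjusted p = 1) and 9 and 4 reads for miR-296-3p (1.73, 0.388 to 6.21, adjusted p = 0.50). Neither arm of Mir296 therefore showed a shift of its seed beyond counting error.

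In miR-298-5p 96.9% of the control and 95.5% of the PD reads began at the RefSeq base. A second start 2 bases downstream gave 479 reads (3.0%) in the control and 623 reads (4.29%) in PD, a fold change of 1.17 (1.04 to 1.32), while reads of the RefSeq start had a fold change of 0.808. Among perfect reads any other start had odds 1.44 times as high in PD (1.28 to 1.63, Fisher's exact test, adjusted p = 3.41e-09). Reads with unmatched bases added at their 3′ end, counted separately below, are left out here. They are many at the shifted start, and the odds ratio with them was not computed. The shift replaces the seed, as the most frequent tags of the 2 starts show, seeds in capitals.
RefSeq start: gGCAGAGGagggctgttcttcc
start 2 bases downstream: cAGAGGAGggctgttcttc

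The most frequent tag of the shifted start had 19 nt and 293 control and 323 PD reads. Its 20-nt form had 73 and 113 reads (fold change 1.39, 1.03 to 1.90) and its 21-nt form, which ends at the last base of the RefSeq strand, had 38 and 92 reads (2.18, 1.48 to 3.27). At both starts, among perfect reads with 3′ ends up to that base, the form that reached it had the highest fold change. These perfect reads were the smaller part at the 21-nt end of the shifted start. With 1 to 3 unmatched bases added there, it had 649 and 647 reads (0.898, 0.804 to 1.00), 94.5% and 87.6% of its reads. Among such reads the 20-nt form of that start had a higher fold change, 1.09 (0.757 to 1.57). The shifted seed AGAGGAG was shared with the most frequent tag of 0 other detected arms. In miR-298-3p, 0 of 9 control and 2 of 5 PD reads began 1 base downstream (Fisher's exact test, adjusted p = 0.242).

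Tags whose last 1 to 3 bases did not match the hairpin after a perfect match of at least 18 nt were outside the rule for members and were counted separately as tailed. miR-298-5p had more tailed than perfect reads, 17007 in the control and 16886 in PD. These made up 51.6% and 53.8% of all its reads, the 7th highest share in the control among 217 arms, for which the median was 7.06% and 8.18%. The first added base was A in 84.0% and 83.5% of the tailed reads. The most frequent tailed tag, the RefSeq strand with 1 A (capital), had 2824 and 2727 reads, more than the 2298 and 2808 of the strand alone taken over both libraries.
miR-298-5p with 1 added A: ggcagaggagggctgttcttcccA

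At the RefSeq 3′ end of miR-298-5p 76.6% of the control and 73.7% of the PD reads were tailed, against 37.0% and 36.5% when the templated part was 1 base shorter. Tailed reads of miR-298-5p had a fold change of 0.895 (0.876 to 0.914), and with them the fold change of the arm was 0.858. The odds of a tail were 1.09 times as high in PD (1.06 to 1.13). The tailing of this arm was thus extensive in both libraries and differed little between them.

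In miR-296-3p the tailed reads did not follow the perfect ones. There were 316 tailed reads in the control and 277 in PD, a fold change of 0.790 (0.670 to 0.931), so that the tailed share was 10.7% (9.66 to 11.9) in the control and 29.0% (26.2 to 32) in PD, an odds ratio of 3.4 (2.82 to 4.09). The contrast lay at the 18-nt end. Reads that ended there without a tail numbered 2445 and 581 (fold change 0.214, 0.195 to 0.234), while reads with the same 18 bases and a tail numbered 230 and 205 (0.803, 0.662 to 0.974). The 2 kinds of read share their templated bases and differ only in the bases added after them, which make the tailed reads 19 to 21 nt long.

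The most frequent tailed tags of miR-296-3p carried the following bases in capitals.
1 added A: gagggttgggtggaggctA
2 added A: gagggttgggtggaggctAA
A and T added: gagggttgggtggaggctAT

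The tag with 1 A had 67 control and 44 PD reads (fold change 0.592, 0.395 to 0.878). That with 2 A had 60 and 56 (0.841, 0.574 to 1.23), and that with A and T had 37 and 39 (0.95, 0.59 to 1.53). Among these 3 tags only the shortest had an interval below 1. Whether the fold change followed the length of the tag was not tested, and the rarer tags had wide intervals. With 3 A added there were 33 and 23 reads (0.628, 0.352 to 1.10), and with 1 T 6 and 8 reads (1.20, 0.366 to 4.20). Adding the tailed reads raised the fold change of miR-296-3p from 0.232 to 0.292, and it was still downregulated. miR-296-5p had few tailed reads, 36 and 47, a share of 2.55% and 2.60%, below the shares of miR-296-3p and miR-298-5p. In miR-298-3p tailed reads brought the total to 19 in the control and 17 in PD.

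**Figure D5:**
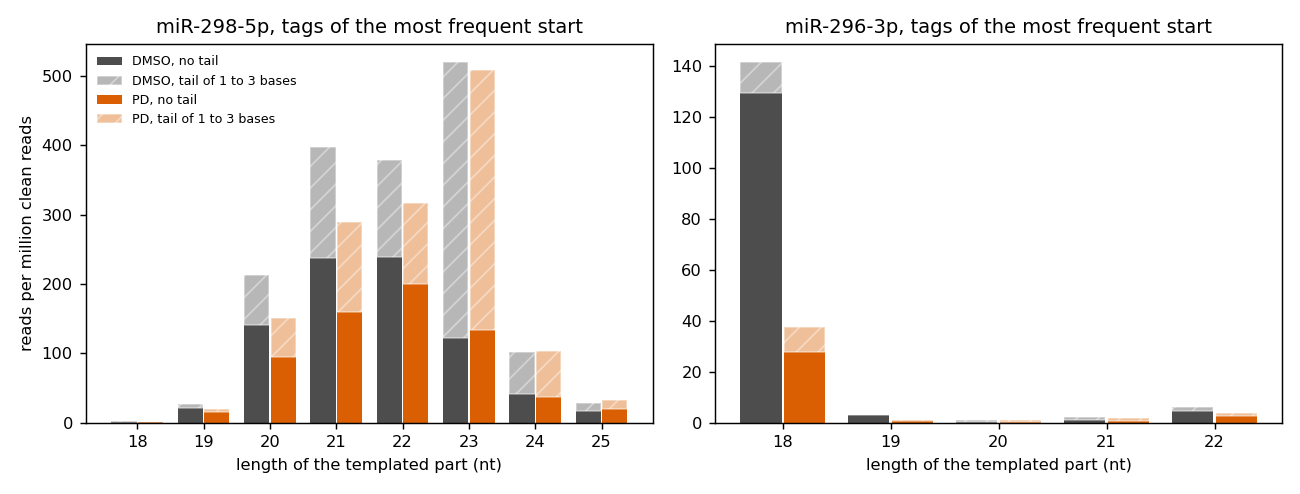
RPM (y) by the length in nt of the templated part (x) for tags of the most frequent start of miR-298-5p (left) and miR-296-3p (right), with reads without a tail (solid) stacked under reads with a tail of 1 to 3 bases (hatched) in the control (DMSO, grey) and PD (orange). Tails are most frequent at 23 nt in miR-298-5p (76.6% and 73.7% of reads). In miR-296-3p at 18 nt the solid part is far lower in PD (fold change 0.214), and the hatched part is lower by a smaller factor (0.803).

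The hairpins as wholes therefore did not keep 1 ratio. Mir296 had 4005 control and 2439 PD reads (fold change 0.549, 0.522 to 0.577) and Mir298 15978 and 14517 (0.819, 0.80 to 0.837). The odds of a Mir296 against a Mir298 read were 0.670 times as high in PD (0.634 to 0.709, Fisher's exact test, adjusted p = 6.12e-46). Counted from tags of 20 nt or more, the ratio turned to 1.37 (1.27 to 1.47, adjusted p = 4.68e-16, Fisher's exact test). The direction of the difference between the neighbours thus depended on whether the 18- and 19-nt tags of miR-296-3p were counted.

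Other hairpins of imprinted loci and other hairpins reported to act on pluripotency factors were taken as comparisons. Of 75 detected arms from 49 hairpins of other imprinted loci, most of them in the Dlk1-Dio3 cluster, 18 were lowered and 1 was raised (14.2% and 6.01% of all detected arms were), and the median of their log2 fold changes was -0.41 (-0.17 over all detected arms). The most abundant were miR-323-3p (0.635), miR-433-3p (0.749), miR-127-3p (0.747) and miR-382-5p (0.533). The counts of this list are per clean read and were not repeated under other denominators, under which fewer of all detected arms were lowered. miR-298-5p, with a log2 fold change of -0.29, lay between both medians. Of 7 detected arms from 5 hairpins reported to act on Nanog, Oct4, Sox2 or other pluripotency factors 0 were lowered and 1 was raised, with a median log2 fold change of -0.16. The raised arm of each list, named after its values were seen, rested on few reads, miR-483-5p on 11 and 22 (fold change interval 0.837 to 4.12) and miR-21a-3p on 9 and 22 (0.975 to 5.43). Among them miR-134-5p had a fold change of 0.706 and miR-470-5p, reported to act on Nanog like miR-296, one of 0.854.

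The directions of the 3 detected arms were the same under the 4 other denominators tried, although their sizes were not, and per clean read of 20 to 24 nt miR-298-5p, at 0.992 (0.970 to 1.01), did not differ beyond counting error. Per read that matched a hairpin, in place of per clean read, miR-296-5p had a fold change of 1.32, miR-296-3p one of 0.266 and miR-298-5p one of 0.939. All log2 fold changes rise by 0.20 under that scaling and the median of the detected arms becomes 0.03. The calls over all detected arms then changed from 30 raised and 71 lowered to 49 raised and 31 lowered, while miR-296-3p was again the one called arm of the 3.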

How the data were processed

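The authors gel-purified small RNA of 18 to 30 nt from total RNA pooled from 3 experiments per treatment, ligated adaptors, amplified by PCR and sequenced 1 library for DMSO and 1 for PD. They removed low-quality reads, adaptors, contaminants and reads under 18 nt, and deposited a table of distinct tags with raw read counts, not normalized. The trimming tools are not given in the sources used here. The submitters' processing notes name mm9, but the tables hold no coordinates. The last line of each table, a total with no tag, was left out.

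Tags were matched on the sense strand to GENCODE M21 hairpins with Python 3.11.15. A tag counted for an arm when it overlapped the arm's most frequent tag by at least 16 nt, and arms with the same most frequent tag were counted once. Counts were divided by clean reads (18870345 and 20944808) to give RPM. Fold changes had exact Clopper-Pearson 95% intervals on the share of PD reads, shares had Wilson intervals, and 11 comparisons of reads were tested by two-sided Fisher's exact test with Benjamini-Hochberg adjustment (SciPy 1.17.1). edgeR 4.0.16 (TMM) and DESeq2 1.42.0 (size factors) served only as alternative scalings; neither test was run, because each treatment had 1 library. Hairpins were folded with ViennaRNA 2.7.2. Other alternatives were denominators, tag classes, filters and thresholds. Tested on simulated data of the PD against DMSO comparison, 587 of 617 intervals held the true fold change. The simulated reads were drawn independently, as the intervals assume. This checks the calculation only and not the coverage in these libraries.

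Named were both arms of each hairpin, the 5 most frequent tags per arm, the most frequent of each length from 18 to 25 nt and of each start with at least 1% of reads, the 3 arms of at least 10 RPM nearest in log2 fold change to a called arm, and at most 4 examples per list. Of these tags only those that a comparison turned on were described. The tailed tags shown lie outside this rule and were chosen after their values were seen. Members and lists were chosen with earlier results of these data known. Introns and nuclear tRNAs were not searched for the tags.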

Additional observations from a re-analysis of the deposited data

How the results depend on the processing

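No paired analysis was possible because each treatment had 1 library. For the fold changes of the arms, 25 of 43 alternatives stayed within the 95% counting interval of the reported value and 18 did not; no alternative moved a detected arm across the 1.5-fold threshold, and the one that crossed 1 is named here. The undetected miR-298-3p went from 0.501 to 0.806 with tailed reads. Per read matching a hairpin, per clean read of 20 to 24 nt, with TMM and with DESeq2 size factors the fold changes were 1.32, 1.40, 1.30 and 1.30 for miR-296-5p, 0.266, 0.281, 0.261 and 0.262 for miR-296-3p, and 0.939, 0.992, 0.920 and 0.922 for miR-298-5p. From tags of 18 and 19 nt alone miR-296-5p came to 0.901, on the other side of 1, and miR-298-5p to 0.846. From tags of 20 nt or more miR-296-3p came to 0.611. The most frequent tag alone gave 0.842 for miR-298-5p, and tailed reads gave 0.858 for miR-298-5p and 0.292 for miR-296-3p.

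Detected arms raised and lowered were 30 and 71 per clean read (29.7% of the calls raised), 49 and 31 per hairpin read (61.3%), 59 and 24 per read of 20 to 24 nt (71.1%), 43 and 36 with TMM or size factors (54.4%), 266 and 298 without a filter (564 changed, against 101), 7 and 26 at 10 RPM or more (33 changed), and 10 and 17 at 2-fold (27 changed). From tags of 20 nt or more, added after seeing the data, they were 33 and 54.

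Of 12 alternatives of the odds ratios, 7 kept direction and side of the threshold. The Mir296 to Mir298 odds ratio turned from 0.670 to 1.37 with tags of 20 nt or more; this setting leaves out most reads of miR-296-3p. The short-tag odds ratio of miR-298-5p turned from 1.03 to 0.857 (18 to 20 nt) and 0.907 (18 nt), and that of miR-296-5p, 0.773, passed the threshold at 0.716 and 0.348; the cause was not tested. For miR-298-3p no short-tag or shifted-start odds ratio could be formed, since it had 0 short reads in both libraries and 0 shifted reads in the control. With 1 library per treatment, the spread between cultures is not known, and forms under 18 nt were not kept.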
